A study of Rattus norvegicus with 32 samples.

Results

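The bone morphogenetic protein (BMP), endoglin and ALK1 pathway was followed through 10 genes in the transcriptome of rat liver sinusoidal endothelial cells (LSECs), the fenestrated cells that line the smallest blood vessels of the liver. The 10 genes were taken by symbol from the 32623 genes of the count files, and each symbol matched 1 Ensembl identifier. They were the ligands Bmp2 (ENSRNOG00000021276), Bmp4 (ENSRNOG00000009694) and Bmp6 (ENSRNOG00000013717), and the receptors Eng (endoglin, ENSRNOG00000050190), Acvrl1 (ALK1, ENSRNOG00000028713) and Bmpr2 (ENSRNOG00000022196). The others were the inhibitory SMADs Smad6 (ENSRNOG00000009173) and Smad7 (ENSRNOG00000018359), and the target genes Id1 (ENSRNOG00000021750) and Id3 (ENSRNOG00000026124). All 10 passed the low-count filter in every comparison.

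BMP ligands bind a type I and a type II serine/threonine kinase receptor on the cell surface, and the activated type I receptor phosphorylates the SMAD1, SMAD5 and SMAD9 proteins, which enter the nucleus with SMAD4. In endothelium the type I receptor is often ALK1, which with its co-receptor endoglin answers the circulating ligands BMP9 and BMP10, and the Id genes and the inhibitory SMADs are among the first genes switched on. LSECs are also the liver source of BMP2 and BMP6, which act on hepatocytes to induce hepcidin, the hormone that limits iron uptake.

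The study asked how the LSEC transcriptome changes as chronic liver disease advances. In the carbon tetrachloride (CCl4) model, male Wistar Han rats inhaled the hepatotoxin for 2 weeks (acute injury, n = 5), 6 weeks (fibrosis, n = 5) or 12 to 14 weeks (cirrhosis, n = 6), with phenobarbital in the drinking water, and were compared with untreated rats (healthy, n = 6). The labels of the cirrhotic libraries call the animals CCL4 treated and carry no duration of their own, and whether the untreated rats also drank phenobarbital is not given in the sources used here. In the thioacetamide (TAA) experiment 5 libraries were labelled control and 5 were labelled TAA control. The series describes these rats as Sprague-Dawley, whereas the sample labels name Wistar Han for all rats. It also describes them as healthy or TAA-cirrhotic, while both labels hold the word control. The treated group could therefore not be told from the untreated one, and differences are given by label only. LSECs were isolated on an iodixanol gradient, several days after the last dose of toxicant, without a sort on a surface marker. The labels do not state that each library came from a separate animal, so p-values measure the spread between these libraries.

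Depth ranged from 25646531 to 46464289 expected counts per library. Levels are given as CPM, counts scaled to a common library size after TMM normalization, separately for the 22 CCl4 libraries and the 10 TAA libraries, so levels are not compared between the experiments. CPM is not corrected for transcript length, so levels are not compared between genes either. A gene was called a differentially expressed gene (DEG) at an unadjusted p under 0.05 with a fold-change above 1.5, the rule of the study. More genes were called here at each CCl4 stage than the study reported, and the study does not state its low-count filter. Adjusted p-values are Benjamini-Hochberg values over all genes tested. The 3 comparisons with healthy LSECs share the same 6 healthy libraries.

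The LSEC label was checked against 9 marker genes, among them Stab1, Stab2 and Lyve1. Their summed level lay between 12780 and 21197 CPM in healthy, 1909 and 2338 in acute, 1365 and 2230 in fibrotic and 10491 and 13298 CPM in cirrhotic libraries. Of the 9 markers, 8 were down-regulated in acute and 9 in fibrotic LSECs. The summed level of 6 endothelial markers ranged from 2657 to 3666 CPM in acute and from 1965 to 2492 CPM in fibrotic libraries, against 6633 to 12410 CPM in healthy ones. Of these 6, Kdr, Tie1, Egfl7 and Tek were down-regulated in both stages, from -3.96 for Kdr to -0.63 for Tek on the log2 scale in acute LSECs. Erg was up-regulated in acute LSECs (1.14), and Cdh5 was not called in either stage (0.39 and -0.18). Hepatocyte markers summed to between 1296 and 27542 CPM in healthy, 145 and 919 in acute, 1308 and 5146 in fibrotic and 2983 and 14444 CPM in cirrhotic libraries. Immediate-early genes such as Fos and Egr1, which respond within minutes to handling of cells and to many stimuli, summed to between 40496 and 69467 CPM in healthy libraries. They reached 913 to 2385 CPM in acute, 1929 to 3139 in fibrotic and 18915 to 42066 CPM in cirrhotic libraries. The part of these shifts in the results that follow was not tested, and in bulk RNA fewer cells of a type and less RNA per cell cannot be told apart.

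**Figure D1:**
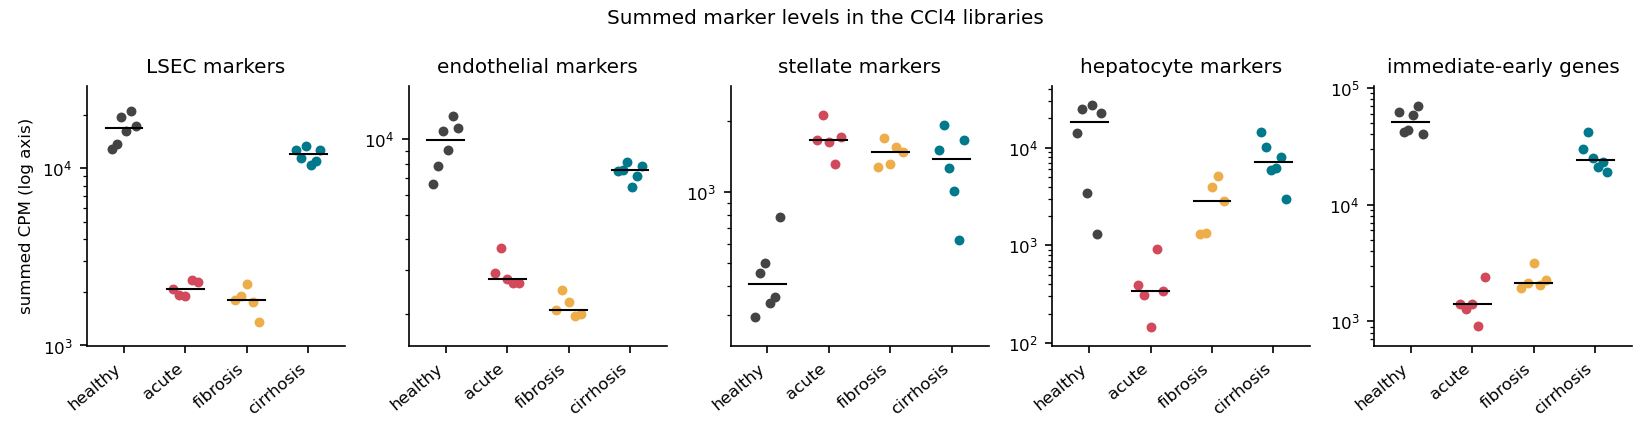
Summed CPM (log axis) of the marker lists in each of the 22 CCl4 libraries by group, with 1 point per library and a bar at the group median. The LSEC markers and the immediate-early genes are lowest in the acute and fibrotic libraries, and the hepatocyte markers spread from 1296 to 27542 CPM among the healthy ones.

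Across the stages the pathway changed in 3 ways. Eng, Acvrl1, Smad6, Id1, Id3 and, to a smaller extent, Bmp2 fell in acute and fibrotic LSECs and were closer to healthy levels in cirrhosis. Bmp6 and Smad7 rose in acute and fibrotic LSECs. Bmp4 and Bmpr2 were highest in cirrhosis. Of the 10 genes, 9 were DEG in acute LSECs (2 up-regulated and 7 down-regulated), where 74.1% of all genes tested were (35.8% and 38.3%). In fibrosis 8 were DEG (2 up-regulated and 6 down-regulated), against 71.2% of all genes (35.8% and 35.4%), and in cirrhosis 7 (3 up-regulated and 4 down-regulated), against 54.5% (28.8% and 25.7%). Their median log2 fold change was -1.61 in acute, -1.5 in fibrotic and -0.48 in cirrhotic LSECs, where the medians over all genes were -0.09, -0.03 and 0.07.

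**Figure D2:**
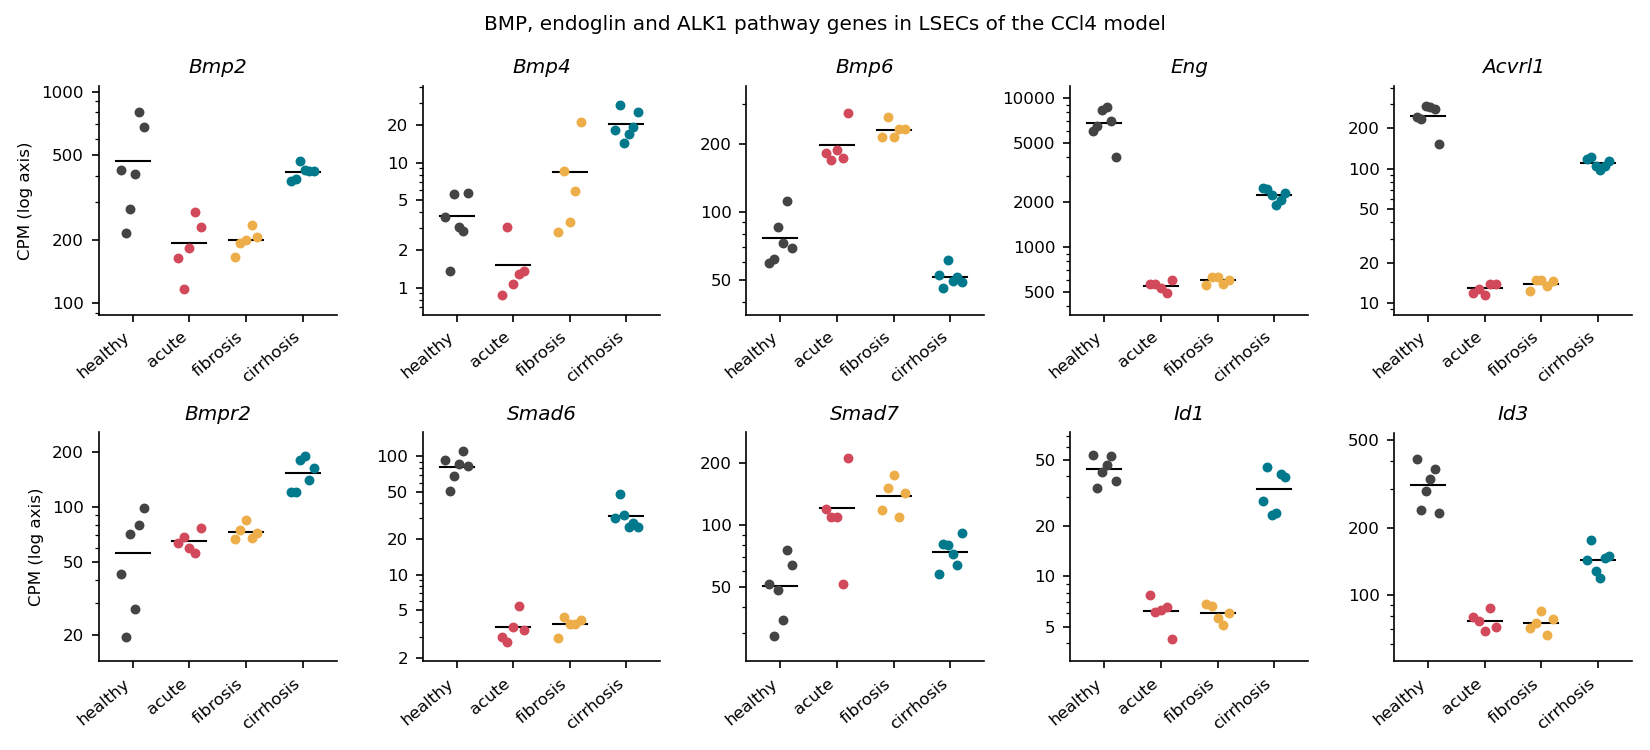
CPM (log axis) of the 10 genes in each of the 22 CCl4 libraries, with 1 point per library and a bar at the group mean. Eng and Acvrl1 separate the acute and fibrotic libraries from all healthy ones, while Bmp2, Bmp4 and Bmpr2 overlap with them.

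The RefSeq promoter table (build GRCr8, not the build of the count files) held the 250 bases before the annotated start of 7 of the 10 genes. Those of Eng, Id1 and Id3, which fell in acute and fibrotic LSECs, and of Bmp6, which rose, are printed 5′ to 3′ along the gene's strand, so that the start regions of genes that moved in opposite directions can be read side by side. Capitals mark the searched letters CCAAT, read on either strand (ATTGG on the opposite one), and TATAAA.
Eng: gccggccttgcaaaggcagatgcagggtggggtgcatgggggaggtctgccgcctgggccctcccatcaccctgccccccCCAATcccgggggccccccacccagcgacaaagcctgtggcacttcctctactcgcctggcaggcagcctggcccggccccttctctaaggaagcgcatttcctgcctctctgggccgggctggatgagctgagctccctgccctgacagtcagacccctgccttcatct
Id1: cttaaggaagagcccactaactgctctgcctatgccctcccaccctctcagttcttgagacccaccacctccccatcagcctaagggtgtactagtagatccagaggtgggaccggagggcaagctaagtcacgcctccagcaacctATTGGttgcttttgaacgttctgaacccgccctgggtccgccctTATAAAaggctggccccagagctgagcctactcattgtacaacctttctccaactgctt
Id3: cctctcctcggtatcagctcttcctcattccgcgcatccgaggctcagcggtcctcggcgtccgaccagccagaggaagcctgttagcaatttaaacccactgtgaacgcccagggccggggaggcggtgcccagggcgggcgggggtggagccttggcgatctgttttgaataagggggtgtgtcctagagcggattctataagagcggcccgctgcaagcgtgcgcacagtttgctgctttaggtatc
Bmp6: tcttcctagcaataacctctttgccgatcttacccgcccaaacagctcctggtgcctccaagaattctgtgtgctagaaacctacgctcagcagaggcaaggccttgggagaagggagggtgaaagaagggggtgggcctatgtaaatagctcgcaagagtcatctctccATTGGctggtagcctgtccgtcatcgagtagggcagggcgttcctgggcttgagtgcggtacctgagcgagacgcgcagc
The Eng window lies on the plus strand at chr3:36332029-36332278 and held CCAAT once, from 170 to 166 bases before the start. The Id1 window (plus strand, chr3:161671314-161671563) held TATAAA from 59 to 54 bases and CCAAT on the opposite strand from 103 to 99 bases before the start. The Id3 window (plus strand, chr5:153656041-153656290) held neither. The Bmp6 window (minus strand, chr17:26675262-26675511) held CCAAT on the opposite strand from 80 to 76 bases before the start. The share of G and C was 68.0% for Eng, 54.8% for Id1, 61.2% for Id3 and 56.4% for Bmp6. The letters GGCGCC, a core of many BMP-responsive SMAD sites, were in none of these 4 windows but stood at 2 places in that of Smad7, at 96 to 91 and 36 to 31 bases before the start. Over all 33469 promoters of the table, 34.0% held CCAAT, 12.9% TATAAA and 8.69% GGCGCC, so a match only describes the sequence.

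Endoglin and ALK1 fell together. Eng encodes the co-receptor that presents BMP9 and BMP10 to ALK1. In healthy LSECs it ranged from 4008 to 8693 CPM with a median of 6762. In acute LSECs Eng measured 565, 563, 529, 487 and 597 CPM, and in fibrotic LSECs 557, 631, 631, 564 and 601 CPM. Every acute and fibrotic library was far below the lowest healthy one, and the spread within these groups was small. Cirrhotic LSECs ranged from 1924 to 2503 CPM with a median of 2268, between the fibrotic and the healthy libraries without overlap with either. Eng was thus 11.7-fold lower in acute LSECs than in healthy ones (log2 fold change -3.55 ± 0.182, SE, adjusted p = 9.34e-09), 10.5-fold lower in fibrosis (-3.39 ± 0.176, adjusted p = 1.32e-08) and 2.92-fold lower in cirrhosis (-1.55 ± 0.188, adjusted p = 0.000101).

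Acvrl1, which encodes the receptor kinase itself, ranged from 153 to 292 CPM in healthy LSECs with a median of 261. It measured 12, 12.8, 11.6, 13.9 and 14 CPM in the acute libraries and 12.3, 14.8, 14.8, 13.5 and 14.6 CPM in the fibrotic ones. No acute or fibrotic library came near the healthy range. Cirrhotic LSECs lay between 97.8 and 123 CPM with a median of 109, again without overlap with either side. The drop was 18.5-fold in acute LSECs (log2 fold change -4.21 ± 0.181, adjusted p = 3.33e-09), 16.6-fold in fibrosis (-4.05 ± 0.176, adjusted p = 5.01e-09) and 2.19-fold in cirrhosis (-1.13 ± 0.167, adjusted p = 0.000206). The lowest healthy values of Eng and of Acvrl1 came from the same library, healthy replicate 6.

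The type II receptor Bmpr2 did not follow them. The healthy libraries were widely spread, from 19.5 to 98.1 CPM with a median of 57.2. Acute LSECs gave 63.6, 68.8, 60, 55.9 and 77.3 CPM and fibrotic ones 67.2, 74.6, 85.1, 68.2 and 72.4 CPM, all inside the healthy range. Cirrhotic libraries ranged from 120 to 189 CPM with a median of 152 and were all above the highest healthy one. Bmpr2 was 3.11-fold higher in cirrhosis (log2 fold change 1.64 ± 0.341, adjusted p = 0.00166). It was not a DEG in acute (0.44, 95% confidence interval -0.35 to 1.24) or fibrotic LSECs (0.66, -0.14 to 1.45), intervals that include both no change and a rise of more than 1.5-fold. This depended on the setting, since Bmpr2 was called in both stages without healthy replicate 6, the library with the highest value (log2 fold changes of 0.74 and 0.81), with library weights (0.86 and 1.05) and with scaling by library size alone (0.85 and 1.05). The 3 healthy libraries with the least Bmpr2, replicates 2, 4 and 1 at 19.5, 27.7 and 43.3 CPM, had hepatocyte marker sums of 25201, 27542 and 14180 CPM. Replicates 3, 5 and 6, at 71, 79.3 and 98.1 CPM of Bmpr2, had sums of 3438, 1296 and 22944 CPM, and the part of hepatocyte RNA in this spread was not tested.

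Among the ligands, Bmp2 and Bmp6, both made by LSECs, moved in opposite directions. Bmp2 ranged from 215 to 805 CPM in healthy LSECs with a median of 417. Acute libraries held 163, 117, 182, 269 and 229 CPM, and fibrotic libraries 165, 192, 200, 235 and 205 CPM. Most of these were below every healthy library, but the groups overlapped at the lowest healthy values. Bmp2 was 2.23-fold lower in acute LSECs (log2 fold change -1.16 ± 0.337, adjusted p = 0.00723) and 2.04-fold lower in fibrosis (-1.03 ± 0.305, adjusted p = 0.00881). Both calls were lost when libraries were scaled by their size alone (-0.75 and -0.63). In cirrhosis Bmp2 ranged from 377 to 468 CPM, inside the healthy range, with a log2 fold change of -0.01 (95% confidence interval -0.59 to 0.56).

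Bmp6, the main ligand of the hepatic iron response, ranged from 59.2 to 112 CPM in healthy LSECs with a median of 71.2. It reached 182, 171, 189, 174 and 276 CPM in acute libraries and 215, 264, 216, 233 and 233 CPM in fibrotic ones. All acute and fibrotic libraries exceeded all healthy ones, and acute replicate 8 stood apart at 276 CPM. The rise was 2.66-fold in acute LSECs (log2 fold change 1.41 ± 0.187, adjusted p = 2.3e-05) and 3.23-fold in fibrosis (1.69 ± 0.156, adjusted p = 1.36e-06). In cirrhosis Bmp6 ranged from 46.1 to 61.6 CPM with a median of 50.5 and overlapped only the lowest healthy values. Its fold-change there, 1.45-fold lower, was under the threshold although the adjusted p was 0.0107, and it was called without cirrhosis replicate 3 (-0.59), healthy replicate 1 (-0.60) or healthy replicate 2 (-0.59).

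Bmp4, a ligand made in many mesenchymal and endothelial cells, had low expected counts in acute libraries (32 to 112) and more in cirrhotic ones (561 to 1439). It ranged from 1.37 to 5.71 CPM in healthy LSECs, or 40 to 221 expected counts. Acute libraries held 0.871, 3.05, 1.08, 1.29 and 1.36 CPM, and fibrotic ones 2.81, 8.61, 3.36, 5.97 and 21 CPM. Fibrosis replicate 17, at 21 CPM, was the highest of these, and both groups overlapped the healthy range. Cirrhotic libraries ranged from 14.2 to 28.6 CPM with a median of 18.7, all above the healthy ones. Bmp4 was 5.89-fold higher in cirrhosis (log2 fold change 2.56 ± 0.307, adjusted p = 9.62e-05) and 2.37-fold lower in acute LSECs (-1.25 ± 0.43, adjusted p = 0.0185), the latter lost when scaled by library size alone (-0.84, adjusted p = 0.0925). In fibrosis the difference of 0.98 did not pass (95% confidence interval -0.20 to 2.16), but did without fibrosis replicate 12 (1.3), with edgeR (1.24) or DESeq2 (1.29) and with scaling by library size alone (1.37). Beside this, 6 of 9 stellate cell markers were up-regulated in cirrhotic LSECs. The summed level of the 9 was 628 to 1920 CPM, against 293 to 786 CPM in healthy libraries. It was also above healthy in acute (1313 to 2132 CPM) and fibrotic libraries (1278 to 1703 CPM). Most markers did not follow that sum, since 7 of 9 were down-regulated and 1 was up-regulated in acute LSECs. In fibrosis 3 rose and 4 fell. The part of these markers in the Bmp4 rise was not tested.

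The inhibitory SMADs, which block BMP and TGF-β receptors from inside the cell as negative feedback, were split. Smad6, the inhibitor more selective for BMP signals, ranged from 51.2 to 110 CPM in healthy LSECs with a median of 84.5. It dropped to 2.97, 2.7, 3.64, 5.5 and 3.41 CPM in acute libraries and 2.95, 4.43, 3.82, 3.87 and 4.14 CPM in fibrotic ones. These were 99 to 239 and 103 to 142 expected counts, and no library approached the healthy range. Cirrhotic LSECs lay between 25.4 and 48.4 CPM, all below healthy, with replicate 2 the highest. Smad6 was 21.8-fold lower in acute LSECs (log2 fold change -4.45 ± 0.265, adjusted p = 2.91e-08), the lowest value among the 10 genes. It was 19.9-fold lower in fibrosis (-4.32 ± 0.24, adjusted p = 2.19e-08) and 2.57-fold lower in cirrhosis (-1.36 ± 0.207, adjusted p = 0.00024).

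Smad7, which also restrains TGF-β receptors, ranged from 28.9 to 76.1 CPM in healthy LSECs with a median of 50.1. Acute libraries held 120, 109, 110, 51.6 and 213 CPM and fibrotic libraries 118, 151, 175, 109 and 144 CPM. Acute replicate 4, at 51.6 CPM, sat within the healthy range, and every fibrotic library was above it. Smad7 was 2.33-fold higher in acute LSECs (log2 fold change 1.22 ± 0.341, adjusted p = 0.00562) and 2.99-fold higher in fibrosis (1.58 ± 0.24, adjusted p = 8.3e-05). In cirrhosis it overlapped the healthy range, at 57.8 to 91.1 CPM, and was 1.54-fold higher (0.62 ± 0.215, adjusted p = 0.0246). This call fell under the fold-change threshold with edgeR (0.57) and without cirrhosis replicate 2 (0.57), cirrhosis replicate 6 (0.55), healthy replicate 2 (0.48) or healthy replicate 4 (0.53).

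The targets Id1 and Id3, which encode inhibitors of basic helix-loop-helix transcription factors and are textbook readouts of BMP signalling, both fell. Id1 ranged from 33.7 to 53.6 CPM in healthy LSECs with a median of 44.2. It measured 7.76, 6.13, 6.3, 6.52 and 4.23 CPM in acute and 6.83, 6.61, 5.62, 5.14 and 6.07 CPM in fibrotic libraries, none near the healthy range. Id1 was 6.97-fold lower in acute LSECs (log2 fold change -2.80 ± 0.198, adjusted p = 1.11e-07) and 6.91-fold lower in fibrosis (-2.79 ± 0.175, adjusted p = 5.77e-08). Cirrhotic libraries, at 23.4 to 45.3 CPM, overlapped the healthy ones, and the difference did not pass (-0.42, 95% confidence interval -0.85 to 0.01).

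Id3 ranged from 234 to 410 CPM in healthy LSECs with a median of 314. Acute libraries held 78.9, 75.7, 68.2, 87.1 and 71.3 CPM, and fibrotic ones 70.6, 74.3, 84.1, 65.9 and 77.5 CPM. Cirrhotic libraries ranged from 119 to 177 CPM with a median of 145. The 4 groups were separate except for acute and fibrosis. Id3 was 3.94-fold lower in acute LSECs (log2 fold change -1.98 ± 0.168, adjusted p = 5.22e-07), 3.95-fold lower in fibrosis (-1.98 ± 0.164, adjusted p = 5.51e-07) and 2.14-fold lower in cirrhosis (-1.10 ± 0.168, adjusted p = 0.000253). All 10 immediate-early genes were also down-regulated in acute and fibrotic LSECs, and 6 of 10 in cirrhotic ones. Their part in the Id1 and Id3 values was not tested.

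**Figure D3:**
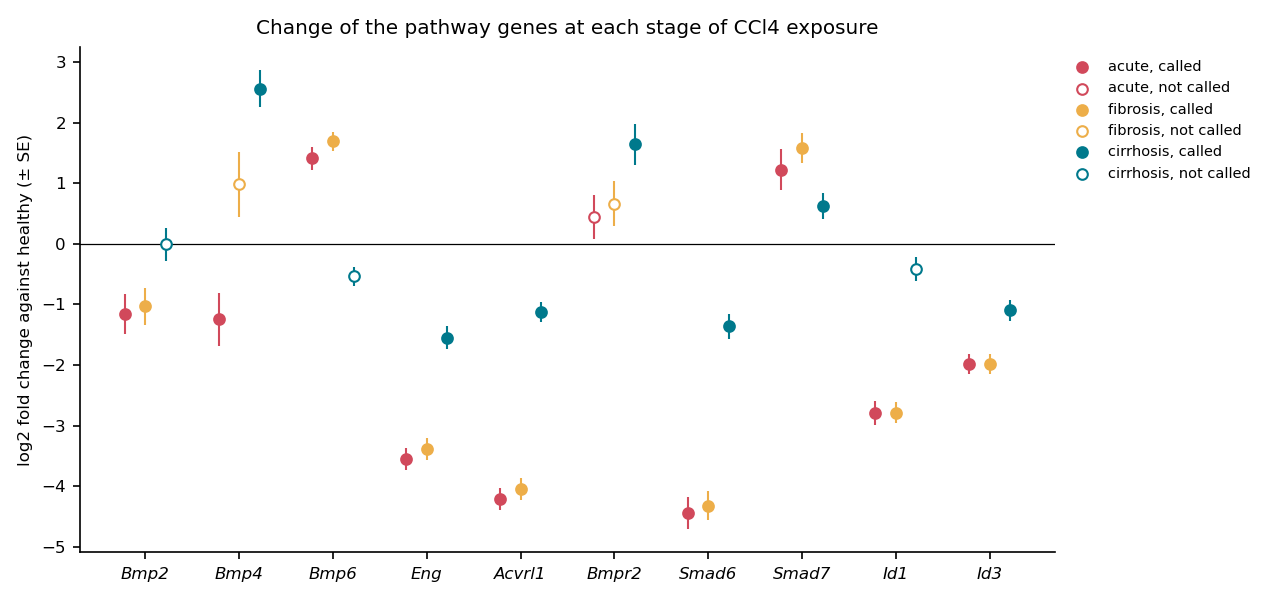
Log2 fold change against healthy LSECs (± SE) of the 10 genes in acute, fibrotic and cirrhotic LSECs, with filled points for called genes and open points for the others. Smad6 and Acvrl1 lie lowest in acute LSECs at -4.45 and -4.21, and Bmp4 lies highest in cirrhosis at 2.56.

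Ratios within a library, which no scaling factor can change, were chosen after the values were seen. Each ratio mixes transcript length with level, so only its shift between groups is read. The ratio of Smad7 to Smad6 counts ranged from 0.4 to 0.779 in healthy, 9.37 to 62.4 in acute, 28.0 to 45.7 in fibrotic and 1.68 to 3.58 in cirrhotic libraries. It was higher than in healthy LSECs by 51.6-fold in acute injury and 59.8-fold in fibrosis (exact two-sided permutation test, p = 0.00433 each) and by 3.97-fold in cirrhosis (exact permutation p = 0.00216). The ratio of Bmp6 to Bmp2 was 0.102 to 0.308 in healthy, 0.646 to 1.46 in acute, 0.992 to 1.37 in fibrotic and 0.116 to 0.139 in cirrhotic libraries. Its shift was 5.95-fold in acute and 6.59-fold in fibrotic LSECs (exact permutation p = 0.00433 each), while the cirrhotic libraries overlapped the healthy ones (exact permutation p = 0.0823, adjusted 0.096). That difference passed without healthy replicate 6 (log2 difference -0.68, exact permutation p = 0.013).

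Within the pairs that fell together, the fall was unequal. The ratio of Eng to Acvrl1 rose from 24.8 to 30.5 in healthy libraries to 35.0 to 46.9 in acute and 41.1 to 45.2 in fibrotic ones, and was 19.7 to 21.3 in cirrhosis. The ratio of Id1 to Id3 was 0.131 to 0.161 in healthy, 0.0594 to 0.0983 in acute, 0.0668 to 0.0967 in fibrotic and 0.183 to 0.278 in cirrhotic libraries. For both ratios each stage was separate from healthy (exact permutation p = 0.00433 for acute and for fibrosis, 0.00216 for cirrhosis). These are the smallest p-values that 5 against 6 and 6 against 6 libraries can give. All 28 ratio tests formed 1 family, and these p-values were 0.00638 after Benjamini-Hochberg adjustment. The adjustment does not cover the choice of the ratios, which was made after the values were seen.

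Between acute injury and fibrosis 1 of the 10 genes was a DEG. This was Bmp4, 4.85-fold higher in fibrosis (log2 fold change 2.28 ± 0.637, adjusted p = 0.0308), where 15.7% of all genes were called (14.3% higher and 1.39% lower). The confidence intervals of the other 9 genes allowed at most a log2 difference of 1.07, for Smad7, and Smad7 was called without acute replicate 8 (0.64). The interval was narrowest for Eng (0.06 to 0.35), Acvrl1 (0.00 to 0.40) and Id3 (-0.14 to 0.23).

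Between fibrosis and cirrhosis all 10 genes were DEG, 8 up-regulated and 2 down-regulated, against 64.2% of all genes (34.5% and 29.7%). Smad6 rose 8.05-fold (log2 fold change 3.01 ± 0.245), Acvrl1 7.87-fold (2.98 ± 0.0867), Id1 5.38-fold (2.43 ± 0.25) and Eng 3.75-fold (1.91 ± 0.0839). Smaller rises were those of Bmp4 at 3.11-fold, Bmp2 at 2.10-fold, Bmpr2 at 2.05-fold and Id3 at 1.92-fold. Bmp6 fell 4.51-fold (-2.17 ± 0.0853) and Smad7 1.87-fold (-0.91 ± 0.144). The adjusted p-values of the 10 ranged from 1.65e-10 for Acvrl1 to 0.00285 for Bmp4. LSEC markers moved with them, with 8 of 9 up-regulated in cirrhosis over fibrosis, but so did every other marker list. Up-regulated were 5 of 6 endothelial, 7 of 9 stellate, 7 of 8 hepatocyte and 8 of 8 macrophage markers. The same held for 3 of 4 cholangiocyte markers, 5 of 5 lymphocyte markers tested and 10 of 10 immediate-early genes. The part of these shifts in the rises was not tested. Against acute LSECs, 9 of the 10 genes were DEG in cirrhosis (8 up-regulated and 1, Bmp6, down-regulated), with 69.7% of all genes called (37.8% and 31.9%). Smad7 missed the threshold (log2 fold change -0.58, 95% confidence interval -1.17 to 0.02) but passed it without acute replicate 4 (-0.85), with edgeR (-0.70), DESeq2 (-0.66) or library weights (-0.65), and with scaling by library size alone (-0.67).

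Another 65 genes of the pathway were listed by role, of which 64 had a single identifier in the files. Of 53 tested in acute LSECs 43 were DEG (15 up-regulated and 28 down-regulated), or 81.1%, against 74.1% of all genes. Of 55 tested in fibrosis 43 were (17 and 26), or 78.2% against 71.2%, and of 56 in cirrhosis 25 (17 and 8), or 44.6% against 54.5%. The shares lie near that of all genes in acute injury and fibrosis and below it in cirrhosis, and the counts by role that follow are to be read against the same background. Of the targets, all 8 tested were down-regulated in acute LSECs. In fibrosis 8 of 9 were down-regulated and 1, Hey2, was up-regulated from 0.171 to 0.775 CPM, as it was in cirrhosis (2.33). Gja4, the gap junction protein connexin 37 of arterial endothelium, fell from a mean of 155 CPM in healthy LSECs to 1.87 CPM in acute (log2 fold change -6.59, adjusted p = 1.03e-07) and 5.34 CPM in fibrotic LSECs. The other Id genes moved with Id1 and Id3, with Id2 at 47.3 CPM in healthy and 8.08 in acute LSECs (-2.40, adjusted p = 4.15e-05) and Id4 at 7.15 and 0.669 CPM (-3.43, adjusted p = 9.96e-07), and both fell in fibrosis too (-1.98 and -2.58). The Notch and BMP target Hey1 averaged 9.57 CPM in healthy LSECs, 0.245 CPM in acute (-5.39, adjusted p = 1.28e-06) and 0.818 CPM in fibrotic ones (-3.51, adjusted p = 9.88e-06). In cirrhosis 4 of 10 targets were DEG, with Msx1 up-regulated from 3.55 to 10.6 CPM (1.70, adjusted p = 0.00166) after a fall in acute (-3.07) and fibrotic LSECs (-1.9). Atoh8 was down-regulated at each stage (-0.90, -1.06 and -0.90), from 17.3 to 9.31 CPM in cirrhosis (adjusted p = 0.000517).

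Of the other ligands, Gdf2 encodes BMP9, which the liver makes mainly in stellate cells. Its mean was 40.6 CPM in healthy, 0.735 in acute, 1.01 in fibrotic and 63.8 CPM in cirrhotic LSEC preparations. It fell in acute (log2 fold change -5.85 ± 0.556, adjusted p = 1.38e-06) and fibrotic preparations (-5.13 ± 0.475, adjusted p = 1.4e-06) and did not pass in cirrhosis (0.67, adjusted p = 0.134), except without cirrhosis replicate 5 (0.94). Of 9 stellate markers 7 were down-regulated and 1, Reln, was up-regulated in acute LSECs, and 3 rose and 4 fell in fibrosis. The summed level of the 9 was nevertheless above every healthy library (293 to 786 CPM), at 1313 to 2132 CPM in acute and 1278 to 1703 CPM in fibrotic ones. The part of stellate cell RNA in the Gdf2 values was not tested. Gdf6 rose in acute LSECs from 0.935 to 8.45 CPM (3.22, adjusted p = 3.38e-05) and also in fibrosis (2.59). Bmp5 fell in acute LSECs (-2.16, or -1.6 without healthy replicate 6). It had 6 to 21 expected counts in an acute library, against 10 to 210 in a healthy one. In cirrhosis it rose from 1.89 to 14.2 CPM (3.25, adjusted p = 0.000795) and Bmp10, the other circulating ligand of ALK1, from 1.24 to 5.46 CPM (2.18, adjusted p = 0.00209).

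Among 8 receptors and co-receptors tested, 5 were DEG in acute LSECs (3 up-regulated, 2 down-regulated), 7 in fibrosis (5 and 2) and 3 in cirrhosis (1 and 2). The activin type II receptor Acvr2a, which also binds BMPs, measured 16.8 CPM in healthy LSECs and rose to 48.7 CPM in acute ones (log2 fold change 1.72, adjusted p = 0.000427) and 43.5 CPM in fibrosis (1.60, adjusted p = 0.000686). Acvr2b (1.58 and 1.5) and Rgmb (0.92 and 0.84) rose in both stages as well. The type I receptor gene Bmpr1a rose in fibrosis (2.44) and cirrhosis (1.73) and was called in acute LSECs without healthy replicate 6 only (0.98, against 0.59 with it). Neo1, neogenin, the receptor of the repulsive guidance molecules, fell at each stage (-0.74, -0.62 and -1.14), a call lost in fibrosis without healthy replicate 5 (-0.55) or fibrosis replicate 17 (-0.51). The hemojuvelin gene Hjv fell at each stage too, from a mean of 12.1 CPM in healthy preparations to 0.0332 in acute (adjusted p = 0.00012), 0.0904 in fibrotic (adjusted p = 0.000642) and 2.28 CPM in cirrhotic ones (adjusted p = 0.0259). It had 0 to 5 expected counts in an acute and 1 to 7 in a fibrotic library, against 36 to 686 in a healthy one. Healthy libraries spread from 1.29 to 23.5 CPM of Hjv. The log2 fold change in cirrhosis was -1.94, or -2.49 without healthy replicate 5, and the part of hepatocyte RNA in the Hjv values was not tested. All 4 SMAD effectors were DEG in acute LSECs, with Smad4 up from 51 to 129 CPM (1.40, adjusted p = 2.5e-05), Smad5 up (0.77), Smad1 down from 236 to 128 CPM (-0.81, adjusted p = 0.00105) and Smad9 down from 5.43 to 0.399 CPM (-3.63, adjusted p = 6.63e-05). In fibrosis Smad4 (1.32), Smad1 (-0.64) and Smad9 (-3.24) were called in the same directions. The Smad1 call there was lost without healthy replicate 3 (-0.54), fibrosis replicate 12 or fibrosis replicate 16 (-0.58 each). Smad5 in fibrosis, at 0.58, was just under the fold-change threshold and was called without healthy replicate 3 or 5 or without fibrosis replicate 12, 13, 16 or 17 (0.59 to 0.66). In cirrhosis the log2 fold changes of the 4 effectors ran from -0.33 for Smad1 to 0.43 for Smad9, with adjusted p-values from 0.0612 for Smad5 to 0.267 for Smad9.

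Genes listed as extracellular antagonists, many of whose products bind BMPs outside the cell, were mixed. Of 14 tested, 5 were up-regulated and 6 down-regulated in acute LSECs, and 4 and 6 of 14 in fibrosis. In cirrhosis 7 and 2 of 15 were. The list does not tell whether each product blocks or promotes BMP signals, and this was not tested. Twsg1 rose at each stage (log2 fold changes 2.23, 2.73 and 1.64), and Crim1 rose in acute LSECs (1.21) and was not called in fibrosis (0.71) or cirrhosis (0.63), except without healthy replicate 5 or 6. Kcp, kielin/chordin-like protein, fell from 95.5 to 3.29 CPM in acute LSECs (-5.00, adjusted p = 6.38e-08) and remained below healthy in fibrosis (-4.38) and cirrhosis (-2.55). Nbl1 also fell at each stage (-3.02, -2.44 and -0.85), and Fstl1 fell in acute (-1.11) and fibrotic LSECs (-0.80). Mgp, matrix Gla protein, fell in acute LSECs (-1.33) and rose in cirrhosis from 4.08 to 59.9 CPM (3.93, adjusted p = 2.43e-05). Chrdl1, chordin-like 1, rose in cirrhosis to between 2.19 and 54.6 CPM with a median of 11.4, against 0.103 to 1.4 CPM in healthy LSECs (4.50, adjusted p = 0.0021). Its cirrhotic mean of 17.3 CPM was 9.86 CPM without replicate 6, the highest library. The stellate markers described above, 6 of 9 of them up-regulated, moved with Mgp and Chrdl1 in cirrhosis. Their summed level was above healthy in acute and fibrotic libraries too. Of the 9, however, 7 fell and 1 rose in acute LSECs, and 4 fell and 3 rose in fibrosis. The part of these markers in both rises was not tested.

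Intracellular inhibitors were mixed as well, with 2 of 8 up-regulated and 3 down-regulated in acute LSECs, 3 and 3 in fibrosis, and 3 and 1 in cirrhosis. The ubiquitin ligase gene Smurf2, whose product degrades SMADs and receptors, measured 51.6 CPM in healthy LSECs and rose to 278 CPM in acute ones (2.58, adjusted p = 7.05e-06), 242 CPM in fibrosis (2.43) and 92.9 CPM in cirrhosis (0.98). The SMAD phosphatase gene Ppm1a also rose at each stage (1.3, 1.39 and 0.61), in cirrhosis just past the fold-change threshold and not called without cirrhosis replicate 3 or 4 or healthy replicate 1, 2 or 4 (0.55 to 0.57). The pseudoreceptor gene Bambi (-1.93 and -0.98), Tob1 (-1.65 and -1.24) and the SMAD co-repressor gene Ski (-1.5 and -1.48) fell in acute and fibrotic LSECs. The related co-repressor gene Skil rose in fibrosis (0.98) and in cirrhosis from 44.8 to 169 CPM (2.10, adjusted p = 0.000181), and was called in acute LSECs without healthy replicate 6 only (0.92, against 0.62 with it). Fkbp1a fell in cirrhosis (-0.69).

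**Figure D4:**
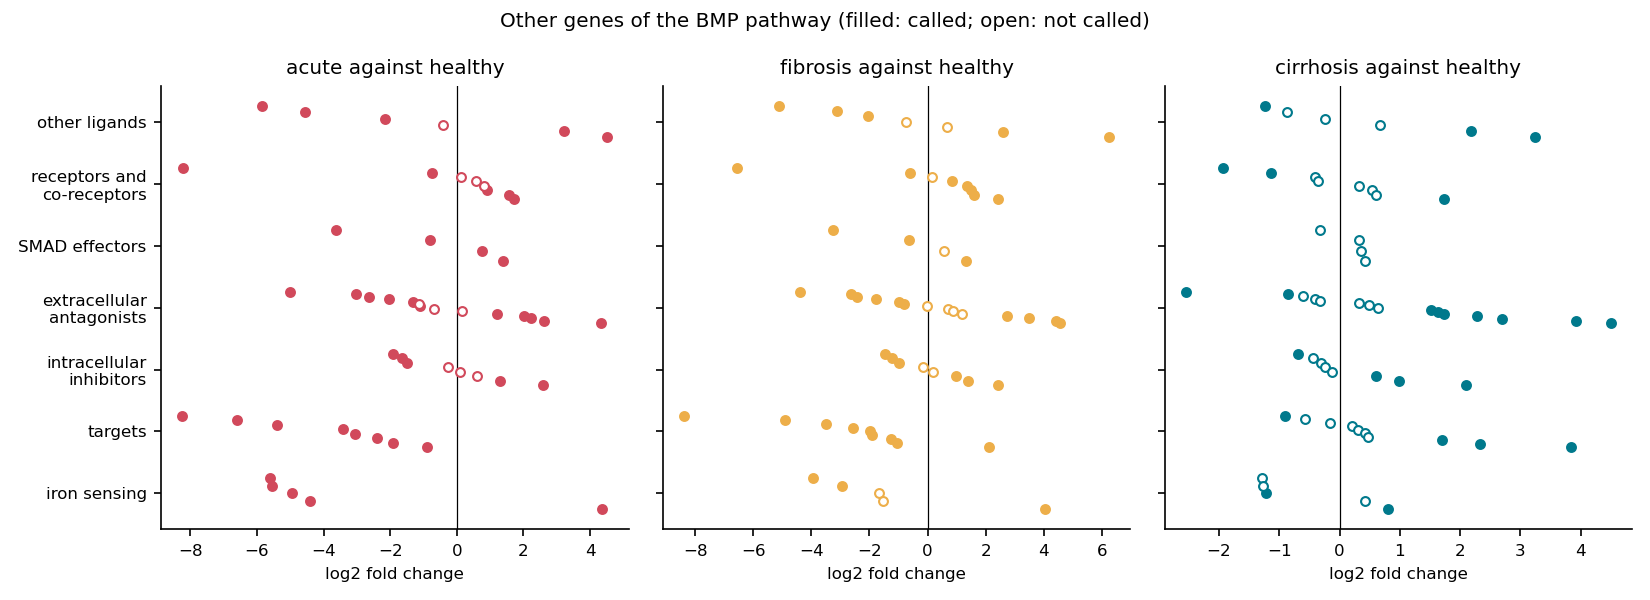
Log2 fold change against healthy LSECs of the other pathway genes by role in acute, fibrotic and cirrhotic LSECs, with 1 point per tested gene, filled if called and open if not. Targets lie to the left of 0 in acute LSECs, all 8 of them down-regulated, and spread around 0 in cirrhosis.

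To place the members among other genes, the genes with the most similar course over the 22 CCl4 libraries were found by the root mean square difference of centred log2 CPM among 8353 genes. This is a description only, since the libraries share groups and scaling. Nearest to Acvrl1 were Midn at 0.133, and Rarg and Pde2a at 0.209 each, where the median gene was at 1.96. Nearest to Eng were Cd81 at 0.178, Marc2 at 0.186 and Lrp5 at 0.201 (median 1.63). Id1 was closest to Slc25a12 at 0.297, Dapk2 at 0.301 and Sri at 0.308 (median 1.51), and Bmp2 to St3gal6 at 0.294, Nfkbiz at 0.301 and Appl2 at 0.329 (median 0.995).

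In the TAA experiment 5 of the 10 genes were DEG between the 2 groups, 3 higher and 2 lower in the group labelled TAA control, where 29.4% of all genes were called (13.5% higher and 15.9% lower). The 2 groups did not overlap for 8 of the 10 genes, against 35.4% of all genes. Bmp2 measured 691, 543, 517, 311 and 289 CPM in the libraries labelled control and 1337, 1404, 1357, 1256 and 1196 CPM in those labelled TAA control. The 2 lowest of these, replicates 4 and 5 labelled control, were also the lowest for Smad6. Bmp2 was 2.93-fold higher in the group labelled TAA control (log2 fold change 1.55 ± 0.226, adjusted p = 0.000336).

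Smad6 measured 34.2, 38.2, 36.8, 15.7 and 17 CPM in the libraries labelled control and 63.8, 51.7, 74.7, 75.3 and 73.9 CPM in the others, a 2.56-fold difference (log2 fold change 1.35 ± 0.256, adjusted p = 0.00147). Id3 measured 79.7, 107, 85.3, 100 and 83.1 CPM against 140, 153, 176, 148 and 150 CPM (0.76 ± 0.0967, adjusted p = 0.000161). Both were higher in every library labelled TAA control. Bmpr2 went the other way, with 160, 165, 172, 162 and 177 CPM in the libraries labelled control and 115, 110, 97.7, 109 and 103 CPM in those labelled TAA control (-0.65 ± 0.0619, adjusted p = 3.07e-05). Bmp4 did as well, at 9.06, 7.25, 5.66, 5.14 and 6.23 CPM against 2.68, 3.07, 2.5, 4.38 and 2.95 CPM (-1.10 ± 0.199, adjusted p = 0.00112).

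The other 5 genes differed by less than 1.5-fold. Eng ranged from 2202 to 2769 CPM in the group labelled control and 3438 to 3922 CPM in the group labelled TAA control, a separation without overlap at 1.41-fold (adjusted p = 0.000791). Bmp6 was 1.46-fold higher in the group labelled TAA control (adjusted p = 0.0015) and was called without replicate 3 labelled control (log2 fold change 0.62). Acvrl1 was 1.17-fold higher (adjusted p = 0.0386) and Id1 1.41-fold lower (adjusted p = 0.038). Smad7 gave a log2 fold change of -0.21 (adjusted p = 0.125). The ratio of Id1 to Id3 was 0.311 to 0.602 in the libraries labelled control and 0.151 to 0.211 in those labelled TAA control (exact permutation p = 0.00794, the smallest that 5 against 5 can give, adjusted 0.00966).

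Of 52 other pathway genes tested in this experiment 32 were DEG, or 61.5%, 7 higher and 25 lower in the group labelled TAA control, against 29.4% of all genes (13.5% and 15.9%). The naming rule given below listed 15 genes for CCl4 cirrhosis outside the iron genes. Of these, 9 were lower in the group labelled TAA control, 2 were higher and 4 were not called. The 9 were Bmp5, Bmp10, Chrdl1, Mgp, Twsg1, Nbl1, Skil, Ppm1a and Msx1, the 2 were Kcp and Neo1, and the 4 were Hjv, Smurf2, Fkbp1a and Atoh8. Bmpr1a (-2.65) and Hey2 (-2.17), whose rises in CCl4 cirrhosis were given above outside that rule, were lower as well. Of the 9, Nbl1 (7.31 against 17.2 CPM, adjusted p = 0.00368) alone had fallen in CCl4 cirrhosis, and the others had risen. Among those that had risen were Chrdl1 (0.471 against 123 CPM, adjusted p = 0.00167) and Mgp (2.24 against 41 CPM, adjusted p = 3.75e-05). Msx1 (1.12 against 10.8 CPM, adjusted p = 1.98e-05) and Bmp5 (2.84 against 29.1 CPM, adjusted p = 0.00042) had risen as well. The Ppm1a call (-0.60) was lost without replicate 4 (-0.57) or 5 (-0.55) labelled control or replicate 13 labelled TAA control (-0.58). Kcp and Neo1, which had fallen in CCl4 cirrhosis, were higher in the group labelled TAA control, Kcp at 57.7 against 14.1 CPM (adjusted p = 0.000733). Stellate markers summed to between 344 and 537 CPM in the group labelled TAA control and 2086 and 5147 CPM in the group labelled control, with 7 of 9 lower in the former. All 10 immediate-early genes were higher there, at a summed 40610 to 60880 CPM against 11782 to 24432 CPM. Hepatocyte markers summed to between 646 and 1452 CPM in the group labelled TAA control, against 2212 to 5467 CPM in the other, with 6 of 8 lower. The part of these marker shifts in the differences was not tested.

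**Figure D5:**
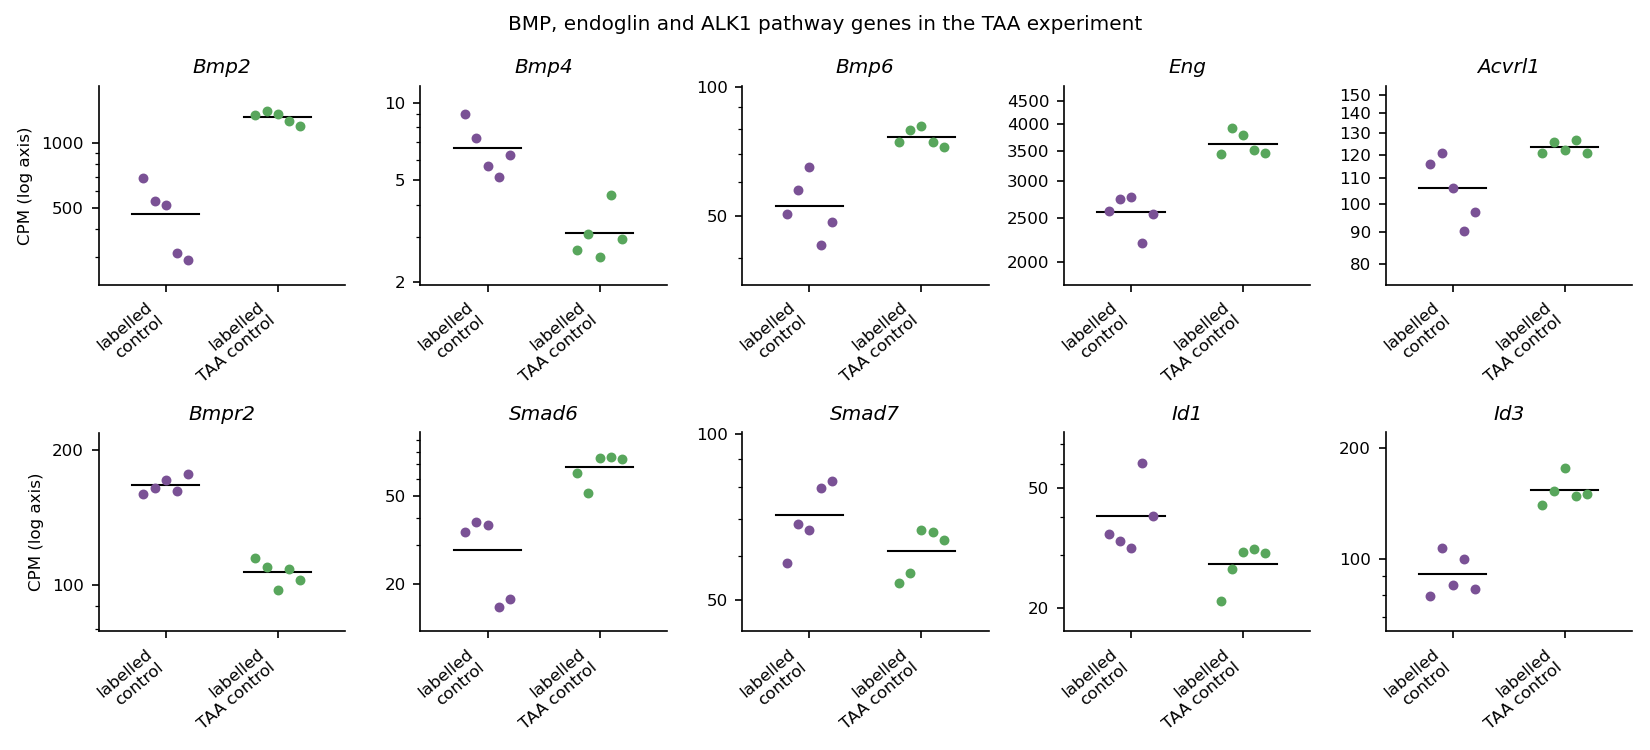
CPM (log axis) of the 10 genes in the 5 libraries labelled control and the 5 labelled TAA control, with 1 point per library and a bar at the group mean. Bmp2, Smad6 and Id3 are higher and Bmp4 and Bmpr2 lower in every library labelled TAA control.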

How the data were processed

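Poly(A) RNA was made into stranded libraries by the authors, who aligned reads with STAR (genome Rnor_6.0) and estimated gene abundance with RSEM. The submitters' processing notes also name FastQC, Trim Galore and limma. The deposited values are RSEM expected counts per gene, not whole in 10.3 to 12.4% of genes of a library, and were rounded here. The groups come from the labels. Each pair of groups was fitted alone with limma-voom (limma 3.58.1, edgeR 4.0.16 for TMM factors and the filterByExpr filter, R 4.3.3) over all genes, without covariates. A gene was called at p under 0.05 with a fold-change above 1.5. CPM are TMM-scaled, and log2 CPM used a pseudocount of 0.5 counts. Ratios were tested by exact two-sided permutation (scipy 1.17.1). The script was tested on simulated data. Alternatives were edgeR's quasi-likelihood test, DESeq2 1.42.0, other scalings and filters, library weights, a replicate block and leaving out each library.

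The members, gene lists and marker lists were chosen with earlier results of these data known. In each list, called genes with a mean log2 CPM of at least 1 are named, at most the 3 largest rises and the 3 largest falls against healthy. For Hey2, Smad9, Reln, the endothelial markers named, stages added for a named gene and the values set out for the TAA experiment, the choice was made after their values were seen. In the group labelled TAA control, replicates 14 and 15 were far closer to each other (chi-square per degree of freedom 3.05) than the next pair (27.6). They differed by more than counting noise, stayed separate, and were summed as an alternative. Titles and descriptions of 4 libraries of this group disagree on the number, and titles were used. Slc40a1, with 2 identifiers, was not used. Pecam1 and Col1a2 were not analysed here.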

Additional observations from a re-analysis of the deposited data

Results flagged for a closer look

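The highest and the lowest library of each gene in each group were tested for standing apart by Dixon's criterion on log2 CPM, in 60 groups, of which chance flags about 1 in 20, or 3. It flagged 3. Bmp6 in acute replicate 8 lay at 8.11 log2 CPM (276 CPM), where the other acute libraries lay between 171 and 189 CPM. Acvrl1 in healthy replicate 6 lay at 7.26 log2 CPM (153 CPM), below the other healthy libraries at 234 to 292 CPM. Smad6 in cirrhosis replicate 2 lay at 5.60 log2 CPM (48.4 CPM), above the others at 25.4 to 32 CPM. No call of these genes in the comparison of that group with healthy LSECs was lost without the library.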

How the results depend on the processing

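Of 312 alternative counts of called members or pathway genes, 309 stayed within 1.5 times the reported count. The exceptions were the members called between fibrosis and acute injury, 5 with no fold-change threshold and 1 to 2 with a library left out (2 without acute replicate 8), and those called in the TAA experiment, 9 with no fold-change threshold. Of the alternatives for single members, 1506 kept direction and call, 30 gained a call, 9 lost one and 15 changed sign. The sign changes were all of differences near 0. Bmp2 between cirrhosis and healthy LSECs changed from -0.01 to 0.17 with library weights, 0.08 with a CPM filter, 0.01 with no filter, 0.00 with DESeq2 size factors, 0.13 with upper-quartile factors and 0.33 with library size only, and lay between -0.20 and 0.16 when each library was left out. Between fibrosis and acute injury Id1 was at -0.02 in a single fit of all CCl4 groups and -0.07 with library weights (-0.06 to 0.14 with a library left out). Id3 was at -0.03 in the single fit and -0.02 with library size only (0.00 to 0.09). The log2 ratios in that comparison ranged, with a library left out, from -0.03 to 0.26 for Bmp6 to Bmp2, -0.22 to 0.47 for Smad7 to Smad6, -0.09 to 0.09 for Id1 to Id3 and -0.07 to 0.04 for Eng to Acvrl1. The cause of these changes was not tested.

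Scaling by library size alone moved the median log2 fold change of all genes against healthy from -0.09 to 0.32 in acute, -0.03 to 0.37 in fibrotic and 0.07 to 0.42 in cirrhotic LSECs. The share of up-regulated genes among all DEG went from 52.8% to 71.2% in cirrhosis with it, and from 50.3% to 60.7% in fibrosis. Same-numbered libraries did not all correlate above 0.1 in any comparison (-0.15 to 0.22 between cirrhosis and healthy, 0.037 to 0.11 between acute and healthy, and -0.074 to 0.051 between cirrhosis and acute). Between acute and healthy all 4 correlations were positive and 3 of 4 libraries correlated best with their own number, against 1 of 6 and 0 of 4 in the others. With the number as a replicate block, 9 members were called in acute and 7 in cirrhotic LSECs against healthy ones, and 9 in cirrhosis against acute injury, as without it. In acute LSECs the block took away the call of Bmp4 (-1.02) and added Bmpr2 (0.87). Low counts limit Bmp4 and Smad6, which had as few as 32 and 99 expected counts in an acute library. Of 84 calls of named pathway genes against healthy LSECs, 80 were kept with each library left out, an alternative chosen after seeing the data.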

Other observations

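Genes of iron handling and sensing in the liver were measured in the same libraries. Tfrc, the transferrin receptor that takes up iron in most cells, averaged 15.7 CPM in healthy, 297 in acute, 228 in fibrotic and 25.8 CPM in cirrhotic LSECs. It was higher than in healthy LSECs at each stage, with log2 fold changes of 4.37 (adjusted p = 4.08e-08), 4.03 (adjusted p = 1e-07) and 0.80 (adjusted p = 0.0196). Hfe, a partner of transferrin receptors in iron sensing, fell from 25 CPM in healthy LSECs to 1.16 CPM in acute (-4.40, adjusted p = 3.16e-08), 1.55 CPM in fibrotic (-3.96, adjusted p = 7.04e-08) and 10.5 CPM in cirrhotic ones (-1.22, adjusted p = 0.000154). Of the 5 iron genes tested, 4 were down-regulated and 1, Tfrc, was up-regulated in acute LSECs. Hamp, which encodes hepcidin, ranged from 2.15 to 149 CPM with a median of 24.6 in healthy and averaged 0.481 CPM in acute preparations (-5.56, adjusted p = 0.00232). Its healthy mean of 44 CPM was 23 CPM without replicate 2, and the log2 fold change in acute preparations ran from -6.26 without healthy replicate 5 to -5.04 without healthy replicate 2. Tfr2 (-5.60) and the protease gene Tmprss6 (-4.96), which hepatocytes express, fell there too, and reached -6.32 and -5.71 without healthy replicate 5. Hamp also fell in fibrosis (-2.96, adjusted p = 0.036), a call lost without healthy replicate 6 (-2.81), fibrosis replicate 12 (-2.31) or fibrosis replicate 13 (-2.59). Tfr2 (-1.67) and Tmprss6 (-1.54) were not called in fibrosis except without healthy replicate 5 (-2.39 and -2.29). All 8 hepatocyte markers were down-regulated in acute LSECs and 5 of 8 in fibrosis, and their part in the values of the hepatocyte genes was not tested.

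Other cell types were read from short lists as well. All 8 macrophage markers were down-regulated in acute and in fibrotic preparations, and 1 of 8 was called in cirrhosis. Of the lymphocyte markers, 4 of 4 tested were down-regulated in acute and 3 of 4 in fibrotic preparations, and 2 rose and 2 fell among 6 in cirrhosis. Of the cholangiocyte markers, 2 of 3 tested fell in acute injury, 2 fell and 1 rose in fibrosis, and 2 of 4 rose in cirrhosis.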
